A study of Rattus norvegicus with 12 samples.

Results

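The kinetochore genes described here are the rows of the deposited rat count table that carry the Gene Ontology term for the kinetochore and belong to neither the KEGG cell cycle nor the KEGG DNA replication pathway. There are 101 such genes among 18749 in the table. The term holds 109 genes in all, and the pathway condition left out 8 of them (Bub1, Bub1b, Bub3, Mad1l1, Mad2l1, Plk1, Smc1a and Ttk), which are used below for comparison. The rule itself uses no measured value, but it was set with earlier results of these data known. All 101 genes passed the filter on low counts and were tested.

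The kinetochore is the protein assembly that ties each chromosome to spindle microtubules when a cell divides. Its inner layer sits on nucleosomes that hold the histone H3 variant CENP-A, and its outer layer grips the microtubule through the Ndc80, Mis12 and Knl1 complexes. A fibrous corona recruits dynein and checkpoint proteins, and the chromosomal passenger complex with the kinase Aurora B releases wrong attachments. Most of the core genes are transcribed in cycling cells around the G2 and M phases, which in the gut means mainly the epithelial cells of the crypts. The term also takes in proteins with work elsewhere, such as dynein subunits, nuclear pore proteins and chromatin factors.

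Polyadenylated RNA was sequenced from the intestine of wild-type rats, in a study of how the small intestine adapts after the whole colon is removed. The 4 postSTC libraries (replicates 1, 2, 5 and 7) were labelled postoperative, the 4 preSTC libraries (replicates 1, 5, 7 and 9) preoperative, and the 4 preCTC libraries (replicates 1, 5, 7 and 9) as taken ahead of a sham operation. Sex, age, time after the operation and the meaning of STC and CTC were not given in the labels. All libraries were listed under batch 1, but their titles name no batch, so joint processing is not shown. The sham arm is represented here by its baseline alone, and so effects of the operation and of elapsed time cannot be told apart. Whether replicates came from separate animals is not stated in the labels. The p-values then reflect only how far these libraries spread, which may be technical. In bulk tissue, fewer cells of a type and less RNA per cell cannot be told apart.

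Library totals were 30095656 to 39374682 counts. One library stood apart: male accessory gland genes such as Semg1 took 44.2% of the counts of postSTC7, against at most 0.0745% in each other library. Levels are therefore given as CPM, a gene's share of the library's counts, scaled by trimmed means of M values (TMM). The totals of called members in the comparisons with postSTC are also given without postSTC7. The labelled tissue also differed in its markers. The mean log2 CPM of 7 ileal epithelium markers was 5.84 to 7.43 in postSTC, 7.58 to 7.78 in preSTC and 0.25 to 1.05 in preCTC. That of 11 colon epithelium markers was 4.51 to 5.50 in postSTC, -0.66 to 0.25 in preSTC and 4.44 to 6.47 in preCTC. Region of the gut and group therefore cannot be told apart in any comparison below.

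Many promoters of genes that peak in G2 and M hold a cell cycle homology region (CHR), with TTTGAA as its usual core, often downstream of CCAAT boxes. Stretches of 140 bases, from 110 before to 30 after the annotated start, are printed for 7 members. Birc5, Spag5, Cenpf, Spc25, Ckap5 and Nup37 show a CHR match in different layers of the kinetochore, and Mis12 shows an outer kinetochore gene with CCAAT but no CHR match in the window. The outer kinetochore genes Dsn1, Ska3, Pmf1 and Nsl1 had no CHR match in their windows either. Capitals mark the CHR letters TTTGAA or TTCGAA and the letters CCAAT, on either strand. The sequences are from RefSeq on assembly GRCr8, which is not the assembly of the counts, and were picked after the matches and the expression values were known. They lie at chr10:103572036-103572175, plus strand (Birc5), chr10:63696726-63696865, plus strand (Spag5), chr13:103760857-103760996, minus strand (Cenpf), chr3:74396689-74396828, minus strand (Spc25), chr3:97946938-97947077, plus strand (Ckap5), chr7:24461122-24461261, plus strand (Nup37) and chr10:56238207-56238346, plus strand (Mis12).
Birc5: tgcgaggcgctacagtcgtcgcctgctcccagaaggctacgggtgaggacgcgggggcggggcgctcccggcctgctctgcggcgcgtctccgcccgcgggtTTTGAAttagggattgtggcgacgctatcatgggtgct
Spag5: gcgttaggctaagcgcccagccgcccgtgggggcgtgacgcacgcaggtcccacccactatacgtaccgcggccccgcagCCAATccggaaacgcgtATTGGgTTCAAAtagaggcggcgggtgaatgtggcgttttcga
Cenpf: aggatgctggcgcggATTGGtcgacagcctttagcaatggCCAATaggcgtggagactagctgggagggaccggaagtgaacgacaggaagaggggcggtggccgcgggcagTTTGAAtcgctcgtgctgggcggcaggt
Spc25: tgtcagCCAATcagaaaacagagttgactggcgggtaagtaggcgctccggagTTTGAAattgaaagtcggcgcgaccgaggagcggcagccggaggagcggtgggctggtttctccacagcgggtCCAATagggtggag
Ckap5: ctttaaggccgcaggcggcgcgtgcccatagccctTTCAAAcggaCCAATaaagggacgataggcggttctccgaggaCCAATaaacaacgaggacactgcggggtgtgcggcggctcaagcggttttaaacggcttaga
Nup37: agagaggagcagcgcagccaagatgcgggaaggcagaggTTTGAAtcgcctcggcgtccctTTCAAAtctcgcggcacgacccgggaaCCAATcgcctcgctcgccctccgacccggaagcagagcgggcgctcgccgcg
Mis12: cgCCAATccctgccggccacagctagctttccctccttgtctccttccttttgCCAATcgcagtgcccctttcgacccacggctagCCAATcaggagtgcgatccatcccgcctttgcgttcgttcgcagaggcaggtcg
In Birc5, Spag5 and Cenpf the CHR letters begin within 10 bases of the annotated start, at positions -8, -7 and 3. In Ckap5 and Nup37 the CHR letters lie upstream of every CCAAT in the window. The only CCAAT of Birc5, at -213, lies outside the printed stretch. The expression of the printed genes is given below with that of the complexes they belong to.

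After the operation, most of the core kinetochore was lower than before it, with 18 of the 28 inner, outer and passenger genes called lower and none higher. Of the 101 genes, 49 (48.5%) were called in either direction between postSTC and preSTC, against 18% of the 15704 genes tested (edgeR's quasi-likelihood test, adjusted p under 0.05). There, 46 (45.5%) were called lower in postSTC than in preSTC, against 6.9% of all genes tested. Only 3 (2.97%) were called higher, against 11.1% of all genes tested. The median log2 fold change, postSTC over preSTC, was -0.42 over the kinetochore genes and 0.04 over all genes tested. In 51 of the 101 genes every postSTC library lay below every preSTC library, against 10.2% of all genes tested. Fold changes of the 46 genes ran from -1.30 in Cenpu to -0.37 in Dctn1 on the log2 scale. Without postSTC7 the counts were 48 lower and 3 higher. Scaled by library totals, which in postSTC7 include the accessory gland counts, 16 were lower and none higher, and on log2 FPKM 4 to 17 were lower.

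Replicates 1, 5 and 7 occur in both groups, and whether the numbers mark pairs is not stated in the labels. The comparison was therefore also made with the replicate as a block. With the block in the fit of all 12 libraries, 36 kinetochore genes were called lower and 2 higher. The genes whose call was lost included Cenpi, Cenpn, Csnk1a1, Dync1li2, Hnrnpu, Knstrn, Lrwd1, Nsl1, Nup37 and Nup43, at adjusted p from 0.053 to 0.0949. With the block in a fit of the 8 libraries alone, which leaves 2 residual degrees of freedom, no member was called. In that fit 50 were lower and 3 higher at an unadjusted p under 0.05, and the lowest adjusted p of a member was 0.0712.

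**Figure D1:**
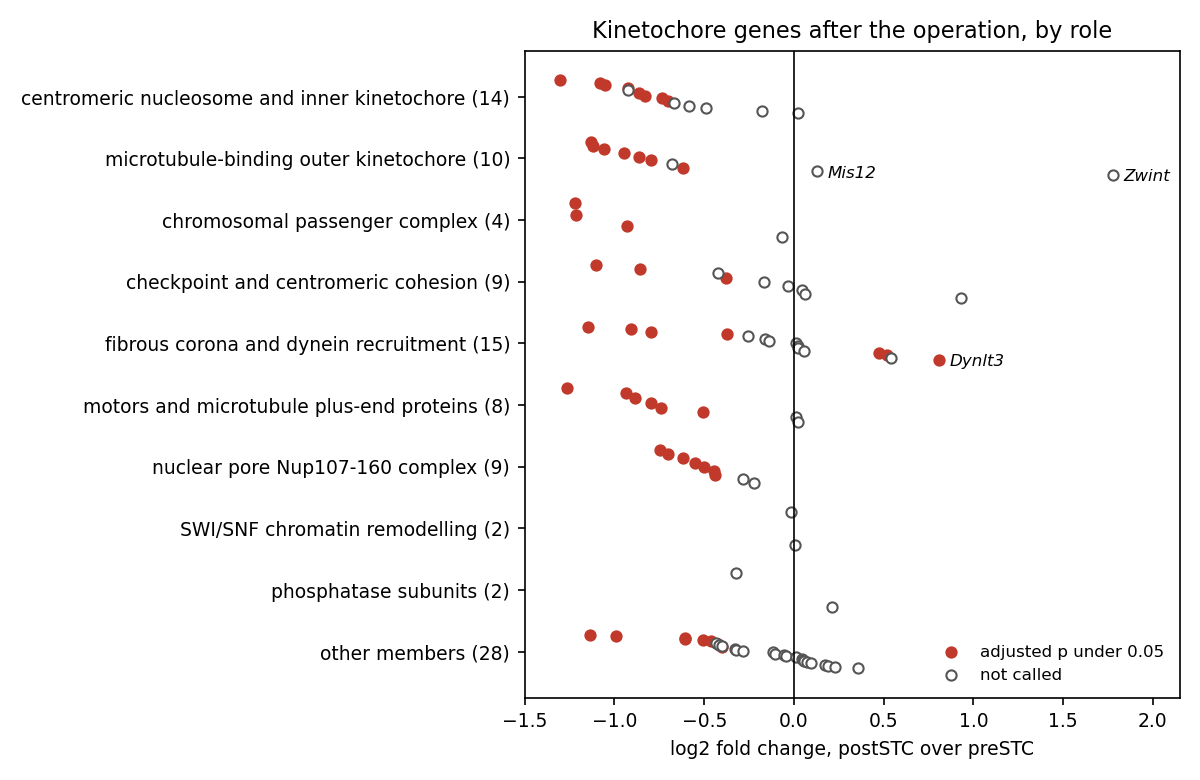
Log2 fold change of postSTC over preSTC (horizontal axis) for each of the 101 kinetochore genes, in rows by role with the number of genes in brackets. Filled points are called at an adjusted p under 0.05 and open points are not, and the called genes lie left of 0 in each role that has any, apart from 3 in the corona and dynein row that lie to the right.

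The inner kinetochore marks the centromere and carries the rest of the structure. Of its 14 genes, 8 were called lower in postSTC than in preSTC and none higher, with a median log2 fold change of -0.78. Cenpa, the centromeric histone, had 13.1, 9.78, 11.0 and 7.26 CPM in postSTC1, 2, 5 and 7, against 22.6, 20.7, 23.1 and 19.2 CPM in preSTC1, 5, 7 and 9. Every postSTC library was thus below every preSTC library, at a log2 fold change of -1.05 (SE 0.17, adjusted p = 0.00251). Cenpu, a subunit of the network that sits on the centromeric nucleosome, had 2.65, 2.51, 1.76 and 1.93 CPM in postSTC, against 6.00, 5.08, 5.67 and 5.16 CPM in preSTC. The groups did not overlap, and the log2 fold change was -1.30 (SE 0.21, adjusted p = 0.0024).

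Hjurp, the chaperone that loads CENP-A, had 17.2, 15.1, 14.7 and 8.46 CPM in postSTC, against 26.3, 25.0, 26 and 28 CPM in preSTC. Every postSTC value was below every preSTC value, and the lowest was that of postSTC7 (log2 fold change -0.93, SE 0.18, adjusted p = 0.00689). Cenpt, a second anchor of the outer layer, was lower, at -1.08 on the same scale (adjusted p = 0.00228). Cenpc, the other anchor, was not called: it had 13.8, 14.3, 19.2 and 14.6 CPM in postSTC, against 14.7, 19.3, 18.5 and 17.5 CPM in preSTC, and the groups overlapped (log2 fold change -0.18, adjusted p = 0.421). Cenpi, Cenpn and Cenpo were called lower, at -0.86, -0.83 and -0.73. Cenpw, Cenpq, Cenph and Itgb3bp had negative fold changes of -0.92, -0.67, -0.59 and -0.49 that missed the threshold, at adjusted p from 0.0547 to 0.21. Cenpv stood at 0.03.

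The outer kinetochore binds the microtubule. Of its 10 genes, 7 were called lower in postSTC and none higher, with a median log2 fold change of -0.83. Ndc80, which contacts the microtubule, had 16.6, 11.9, 15.1 and 9.50 CPM in postSTC, against 29.8, 28.2, 28.6 and 28.8 CPM in preSTC. All preSTC values lay within a narrow range above every postSTC value (log2 fold change -1.12, SE 0.16, adjusted p = 0.00176). Its partner Nuf2 was lower, at -0.86 (adjusted p = 0.00971), whereas Spc25, which joins them to the inner complex, had overlapping groups and a fold change of -0.68 that missed the threshold (adjusted p = 0.067). Knl1, the platform for checkpoint proteins, had 27.1, 24.3, 23.5 and 17.6 CPM in postSTC, against 47.7, 49.6, 39.5 and 41.6 CPM in preSTC, again without overlap (log2 fold change -0.95, SE 0.14, adjusted p = 0.00175). Ska3, of the complex that helps Ndc80 follow a shrinking microtubule, was lower, at -1.06 (adjusted p = 0.0194).

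The 4 subunits of the Mis12 complex differed in their calls. Dsn1, Pmf1 and Nsl1 were called lower, at -1.13, -0.80 and -0.62 on the log2 scale (adjusted p = 0.00384, 0.00384 and 0.0345). Mis12 itself had 25.5, 26.5, 30 and 33.3 CPM in postSTC, against 26.4, 28.9, 25.5 and 24.8 CPM in preSTC. Its groups overlapped and its fold change was 0.13 (SE 0.11, adjusted p = 0.466). The difference between Mis12 and its partners was not tested. Zwint, which binds Knl1, had 42.3, 48.2, 59.1 and 463 CPM in postSTC, against 38.2, 52.7, 41.1 and 46.1 CPM in preSTC. The high value was that of postSTC7, the library with 44.2% accessory gland counts; the part of those counts in it was not tested. The fold change of 1.78 (SE 0.67) was not called (adjusted p = 0.0839). Without postSTC7 it was 0.15 (adjusted p = 0.548), and without postSTC1 it was 2.09 and passed the threshold (adjusted p = 0.0353).

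**Figure D2:**
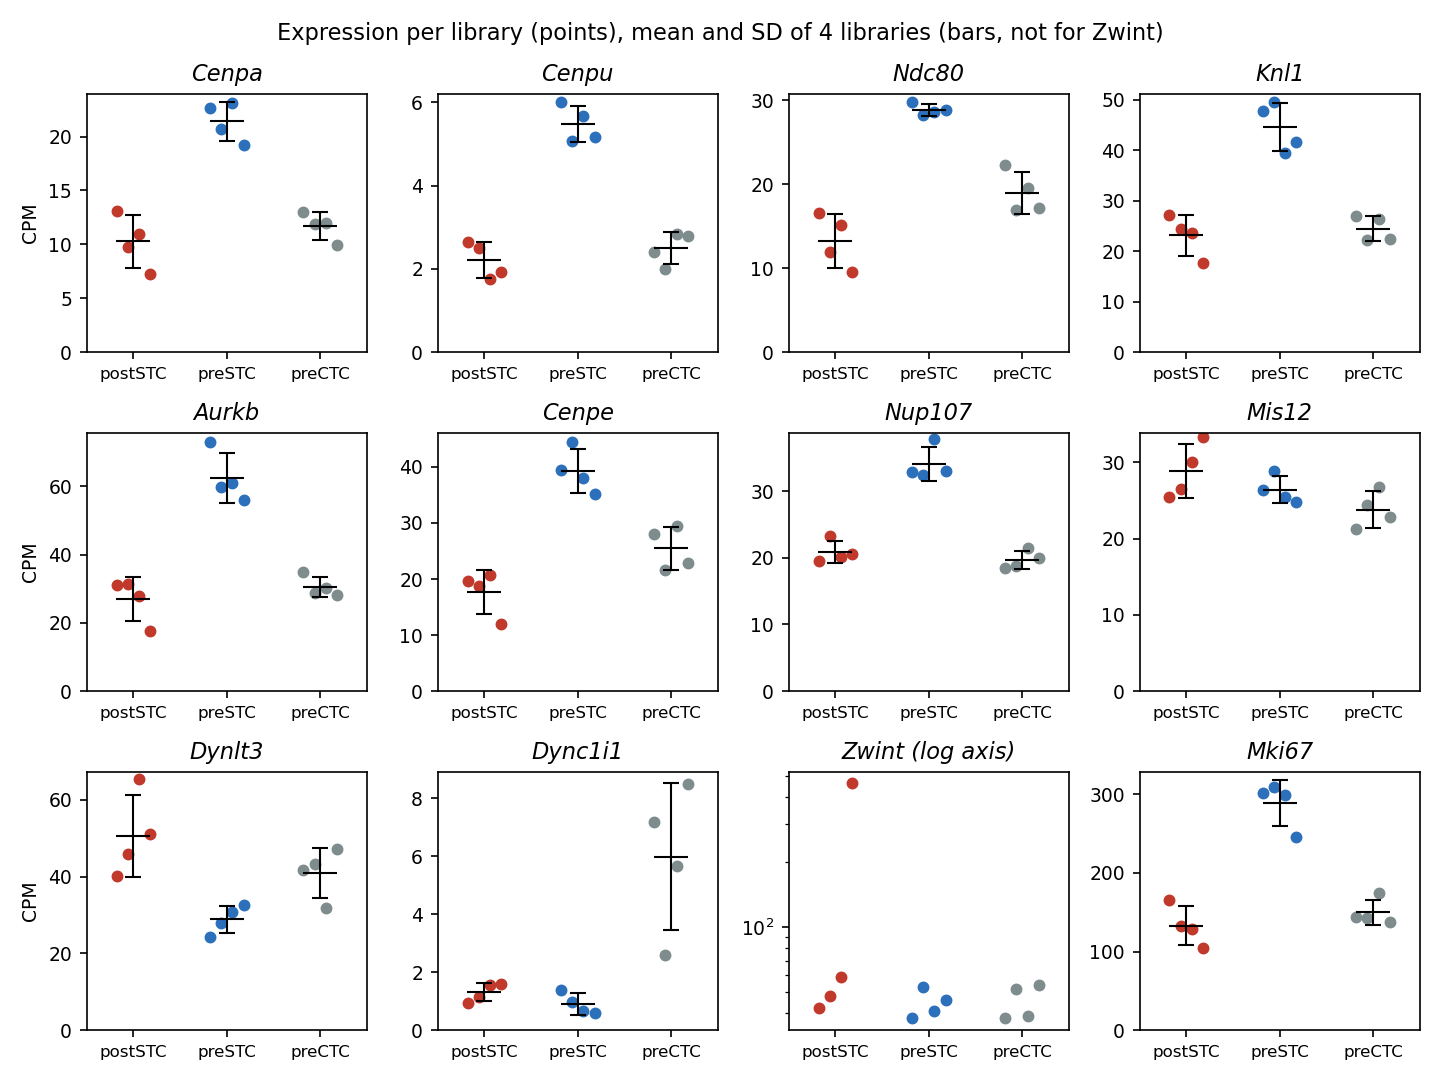
CPM (vertical axis, from 0 except on the log axis of Zwint) of 11 kinetochore genes and the proliferation marker Mki67 in each library, with postSTC, preSTC and preCTC from left to right. Points are libraries and bars the mean and SD of 4 libraries (not drawn for Zwint): Cenpa, Cenpu, Ndc80, Knl1, Aurkb, Cenpe and Nup107 are highest in preSTC, Mis12 overlaps, Dynlt3 is lowest in preSTC, and the single high Zwint point of 463 CPM is postSTC7.

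The chromosomal passenger complex corrects attachments and drives the last steps of division. Its 3 core members present here were called lower in postSTC, and the median of the 4 genes assigned to this role was -1.07. Aurkb, the kinase Aurora B, had 31.0, 31.3, 27.8 and 17.5 CPM in postSTC, against 73.0, 59.8, 60.9 and 55.9 CPM in preSTC. It averaged 26.9 ± 6.5 CPM in postSTC and 62.4 ± 7.4 CPM in preSTC (SD, n = 4 each), with no overlap and a log2 fold change of -1.21 (SE 0.17, adjusted p = 0.00146). Birc5, the subunit survivin that docks the complex on chromatin, had 17.3, 14.8, 14.0 and 9.41 CPM in postSTC, against 30.7, 37.0, 33.0 and 28.7 CPM in preSTC. These groups were also apart (log2 fold change -1.22, SE 0.17, adjusted p = 0.00141). Incenp, the scaffold, was lower, at -0.93 (adjusted p = 0.00173). Rassf2, a Ras association protein that lies outside the complex proper, was at -0.07 (adjusted p = 0.907).

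Of 9 genes for the checkpoint and centromeric cohesion, 3 were called lower. Sgo1 and Sgo2, the shugoshins that guard cohesin at the centromere, were lower, at -1.10 and -0.86 on the log2 scale (adjusted p = 0.00897 and 0.0225). Zfp207, also known as BuGZ, which stabilises Bub3, was lower, at -0.38 (adjusted p = 0.00611). Tpr, Fbxw11, Anapc16 and Champ1 lay between -0.16 and 0.06 and were not called. Rec8 and Tex14, known mainly from germ cells, were at 0.537 to 1.08 and 0.259 to 0.985 CPM in postSTC, against 0.567 to 1.65 and 0.196 to 0.311 CPM in preSTC. Their groups overlapped and neither was called (adjusted p = 0.614 and 0.349). Several classical checkpoint genes belong to the 8 that the pathway condition left out, of which 6 were called lower: Bub1 at -1.18, Bub1b at -1.15, Bub3 at -0.40, Mad2l1 at -0.93, Plk1 at -1.39 and Ttk at -0.96.

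The fibrous corona and the dynein proteins split. Of 15 genes, 4 were called lower and 3 higher, and the median log2 fold change was 0.01. Cenpe, the large kinesin that carries chromosomes to the spindle middle, had 19.6, 18.7, 20.7 and 12.0 CPM in postSTC, against 39.4, 44.5, 38.1 and 35.2 CPM in preSTC. The groups did not overlap (log2 fold change -1.15, SE 0.17, adjusted p = 0.002). Cenpf, a corona protein that binds microtubules, was lower, at -0.91 (adjusted p = 0.00242) and Zwilch, a subunit of the RZZ complex that builds the corona, at -0.80 (adjusted p = 0.00707). Zw10, another subunit of that complex with a further role in membrane traffic, overlapped between the groups (log2 fold change -0.26, adjusted p = 0.262). Dctn1, the large dynactin subunit, was lower, at -0.37 (adjusted p = 0.0155).

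The 3 genes called higher all serve dynein. Dynlt3, a dynein light chain, had 40.2, 45.9, 65.3 and 51.0 CPM in postSTC, against 24.3, 27.8, 30.8 and 32.5 CPM in preSTC. Every postSTC value lay above every preSTC value (log2 fold change 0.81, SE 0.17, adjusted p = 0.00775). Dync1li2, a light intermediate chain, had 109, 111, 110 and 142 CPM in postSTC, against 86.9, 75.1, 82.9 and 84.4 CPM in preSTC (log2 fold change 0.52, adjusted p = 0.0137), and postSTC7 was its highest library. Ndel1, a dynein regulator, was higher by 0.47 (adjusted p = 0.012). Dynll1, Dctn2, Trappc12 and Pafah1b1 had fold changes from 0.01 to 0.05, and Nde1, Dync1li1 and Dync1i1 stood at -0.16, -0.14 and 0.54 without passing the threshold. Taking dynein, dynactin and their regulators as 11 genes, 1 was lower, 3 were higher and the median was 0.02.

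Motors and microtubule plus-end proteins move and hold the attached fibre. Of 8 genes, 6 were called lower in postSTC, with a median log2 fold change of -0.77. Spag5, or astrin, which with Knstrn stabilises correct attachments, had 19.3, 15.4, 13.6 and 10.7 CPM in postSTC, against 34.4, 36.0, 38.6 and 33.1 CPM in preSTC. The groups did not overlap (log2 fold change -1.27, SE 0.19, adjusted p = 0.00201). Knstrn was lower, at -0.89, Kif2c, a kinesin that takes microtubules apart, at -0.80 and Kif18a, which damps chromosome oscillation, at -0.74 (adjusted p = 0.0176, 0.0094 and 0.00729). Cdt1, better known for licensing DNA replication, was lower, at -0.94 (adjusted p = 0.0101). Ckap5, a microtubule polymerase, was lower, at -0.51 (adjusted p = 0.00437). Clasp1 and Clasp2, which promote microtubule rescue in interphase as well, stood at 0.01 and 0.02.

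The Nup107-160 complex is a scaffold of the nuclear pore in interphase and moves to the kinetochore in mitosis. Of 9 genes placed with it, including its partners Nup98 and Ahctf1, 7 were called lower in postSTC, and the median log2 fold change was -0.50. Nup107 had 19.5, 23.3, 20.1 and 20.6 CPM in postSTC, against 32.8, 32.4, 37.8 and 33.0 CPM in preSTC, with no overlap (log2 fold change -0.70, SE 0.10, adjusted p = 0.00146). Sec13, shared with the coat of vesicles leaving the endoplasmic reticulum, had 85.1, 83.4, 70.8 and 94.2 CPM in postSTC, against 137, 119, 131 and 124 CPM in preSTC. It was lower, at -0.62 (SE 0.13, adjusted p = 0.00778). Nup133, Nup85, Nup37, Nup160 and Nup43 were lower, at -0.75 to -0.44. Nup98 and Ahctf1 had fold changes of -0.28 and -0.22 and missed the threshold (adjusted p = 0.0715 and 0.0557).

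Among the 28 members with no assigned role, 8 were called lower and none higher. Xpo1, the exportin that carries proteins and RNA out of the nucleus, had 97.6, 97.0, 99.8 and 84.9 CPM in postSTC, against 140, 146, 143 and 148 CPM in preSTC. The groups were well apart (log2 fold change -0.61, SE 0.08, adjusted p = 0.000883). Its partner in the Ran system, Rangap1, was lower, at -0.51 (adjusted p = 0.00854). Nek2, a kinase of centrosome separation, was lower, at -0.99, Mtbp, which acts in the firing of replication origins, at -1.14 and Ncapd3, of condensin II, at -0.60 (adjusted p = 0.00289, 0.00239 and 0.00244). Csnk1a1, Hnrnpu and Lrwd1 were lower, at -0.42, -0.40 and -0.46. Neither SWI/SNF member (Pbrm1 at -0.02 and Ss18l1 at 0.00) nor phosphatase member (Ppp1cc at -0.32 and Ppp1r12a at 0.21) was called.

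Genes that the ontology column does not list were taken from the same role lists, which also hold SWI/SNF and phosphatase genes. Of these 84 genes, 31 (36.9%) were called lower in postSTC than in preSTC, against 6.9% of all genes tested, with a median log2 fold change of -0.27. In the same comparison 6 (7.14%) were called higher, below the 11.1% of all genes tested. Within them, 8 of 12 motor and plus-end genes were lower and 1 higher, and 4 of 9 inner kinetochore genes were lower and none higher. Of 27 SWI/SNF genes, 7 (25.9%) were lower and 3 higher, and the share higher, 11.1%, equalled that of all genes tested. Among 11 phosphatase genes, 1 (9.09%) was lower and 1 (9.09%) higher, against 6.9% and 11.1% of all genes tested, with a median of 0.10.

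**Figure D3:**
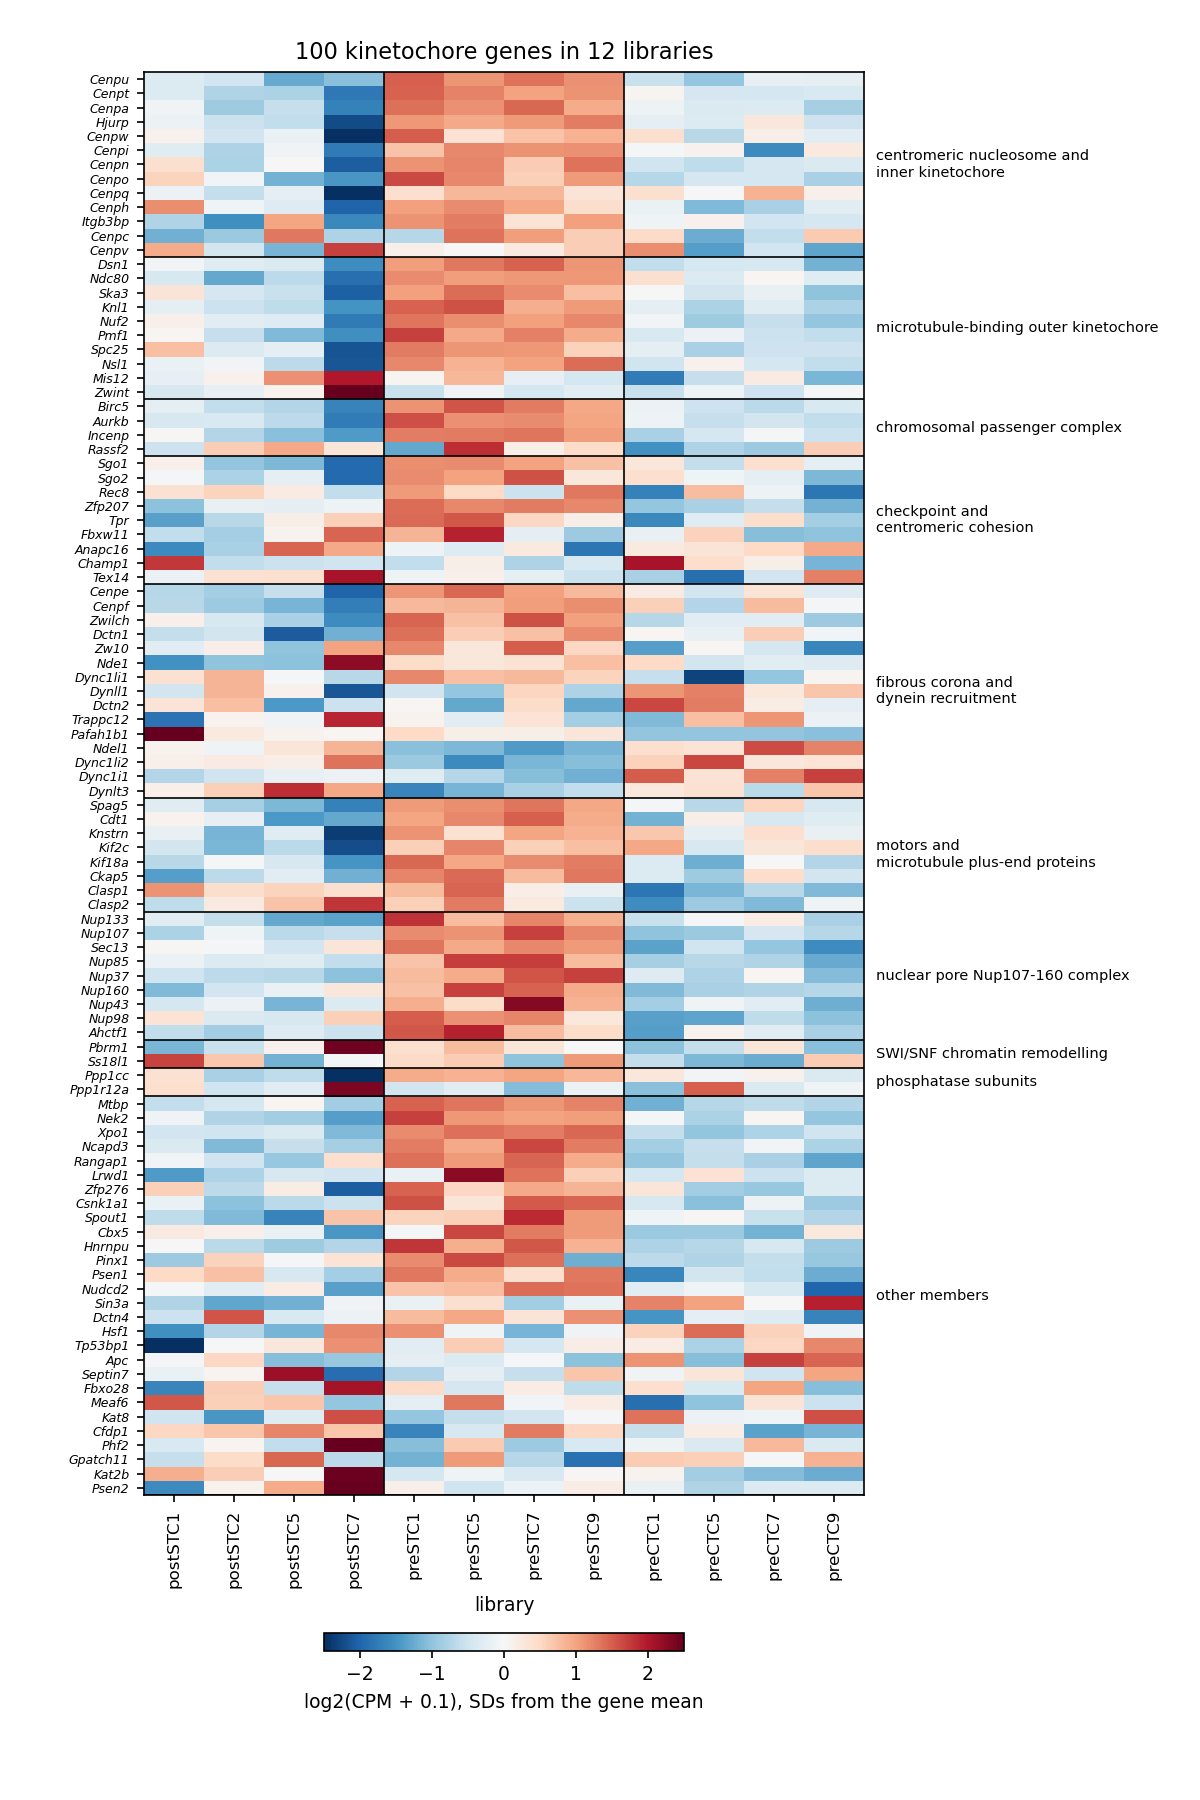
The kinetochore genes (100 of 101 drawn as rows, grouped by role) in each of the 12 libraries (columns), coloured by log2(CPM + 0.1) in SDs from the gene's mean. The 4 preSTC columns are red across most inner, outer, passenger, motor and nuclear pore rows, and postSTC7 has the deepest blue in many of the core rows.

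The preSTC and preCTC libraries, which differed in ileal and colon markers as given above, also differed in kinetochore genes. Of the 101 genes, 54 (53.5%) were called between preSTC and preCTC, against 38.7% of all genes tested. There, 50 (49.5%) were called higher in preSTC than in preCTC, against 19.1% of all genes tested, and 4 (3.96%) were called lower, against 19.6%. The median log2 fold change, preSTC over preCTC, was 0.43, and -0.02 over all genes tested. In 57 genes every preSTC library lay above every preCTC library, against 22.5% of all genes tested. Of the 28 inner, outer and passenger genes, 19 were higher and none lower, at a median of 0.72. All 9 genes of the nuclear pore role were higher, at a median of 0.59. Scaled by library totals, where the median of all genes is -0.18, 8 members were higher and 3 lower. With smooth muscle markers as a covariate, 1 was higher and 1 lower. Their mean log2 CPM was 7.29 to 7.86 in preSTC and 8.85 to 9.56 in preCTC. Since these ranges do not overlap, the covariate takes up part of the group difference.

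Sec13 had 137, 119, 131 and 124 CPM in preSTC, against 51.5, 70.1, 58.9 and 47.4 CPM in preCTC. No library overlapped (log2 fold change 1.17, SE 0.13, adjusted p = 4.05e-05). Mtbp had the largest positive fold change of the members in this comparison, at 1.38 (adjusted p = 0.000143), followed by Dsn1 at 1.22 (adjusted p = 0.000638). Aurkb averaged 62.4 ± 7.4 CPM in preSTC and 30.5 ± 3.0 CPM in preCTC (SD, n = 4 each), a log2 fold change of 1.03 (adjusted p = 0.000624). Cenpa was higher by 0.87, Knl1 by 0.87, Ndc80 by 0.60 and Cenpe by 0.63. Cenpf and Kif2c, at 0.33 and 0.19, were not called.

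Of the 4 genes called lower in preSTC than in preCTC, Dync1i1, Dync1li2 and Dynlt3 are dynein subunits and Ndel1 is a dynein regulator. Dync1i1, an intermediate chain best known from neurons, had 1.40, 0.958, 0.675 and 0.588 CPM in preSTC, against 7.19, 2.59, 5.68 and 8.50 CPM in preCTC. Its groups did not overlap, and the fold change of -2.72 (SE 0.41, adjusted p = 0.000335) was the largest of any member. Ndel1, Dync1li2 and Dynlt3 were lower, at -0.68, -0.60 and -0.51, the genes that were higher in postSTC than in preSTC. These comparisons share the preSTC libraries.

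Between postSTC and preCTC few kinetochore genes differed. Of the 101, 5 were called lower, against 7.37% of all genes tested, and 4 higher, against 9.27%, so both shares (4.95% and 3.96%) were below the background. Counted together, the 9 called genes (8.91%) compare with 16.6% of all genes tested. The libraries did not overlap in 7 genes lower (8.6% of all genes tested) and 6 higher (9.54%). The median log2 fold change, postSTC over preCTC, was -0.01. Cenpf had 41.6, 38.9, 36.0 and 30.2 CPM in postSTC, against 61.6, 41.0, 65.2 and 50.9 CPM in preCTC, and 1 preCTC library fell within the postSTC range (log2 fold change -0.58, adjusted p = 0.0183). Kif2c, Ndc80 and Sin3a, a corepressor scaffold, were lower without overlap, at -0.61, -0.52 and -0.34 (adjusted p = 0.0298, 0.0481 and 0.0259).

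Dync1i1 had 0.938, 1.16, 1.57 and 1.61 CPM in postSTC, against 7.19, 2.59, 5.68 and 8.50 CPM in preCTC. It was lower, at -2.18 (SE 0.40, adjusted p = 0.00317). The genes called higher were Sec13 at 0.55, Clasp1 at 0.36, Nup98 at 0.32 and Kat2b, a histone acetyltransferase, at 0.32 (adjusted p = 0.0121, 0.0184, 0.0457 and 0.0478). Leaving out 1 library at a time gave 1 to 7 genes lower and 2 to 4 higher, the lowest count of lower genes without preCTC1. Without postSTC7, 5 were lower and 3 higher, and only 6 of these calls were shared with the fit of all libraries. In the fit of the 8 libraries compared, 1 was lower and none higher.

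Across the 3 groups, the core genes followed markers of dividing cells. All 18 proliferation reference genes were called lower in postSTC than in preSTC and higher in preSTC than in preCTC, while between postSTC and preCTC their fold changes ran from -0.44 to 0.25. In that last comparison edgeR called none of them, and 2 were lower at an unadjusted p under 0.05. Mki67, the standard marker of cycling cells, had 165, 133, 129 and 105 CPM in postSTC, 302, 309, 299 and 245 CPM in preSTC and 144, 143, 174 and 138 CPM in preCTC. Its preSTC libraries lay above all others. The mean log2 CPM of the inner, outer and passenger genes minus that of the proliferation genes was -1.83 to -1.59 in postSTC, -2.16 to -1.94 in preSTC and -1.82 to -1.58 in preCTC. The mean of the core genes thus stood lower relative to that of the proliferation genes in every preSTC library than in any other library. Of the 28 core genes, 18 were called lower in postSTC than in preSTC. The mean also holds Zwint, Mis12, Cenpv, Rassf2 and Cenpc, with fold changes of 1.78, 0.13, 0.03, -0.07 and -0.18 there. The part of such genes in this difference was not tested.

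Markers of cell types gave these values beside the kinetochore genes. The mean log2 CPM of 10 smooth muscle markers was 8.19 to 8.78 in postSTC, 7.29 to 7.86 in preSTC and 8.85 to 9.56 in preCTC, lowest in the group where the core kinetochore genes were highest. With that score as a covariate no member was called between postSTC and preSTC. There, 32 were lower and 2 higher at an unadjusted p under 0.05, with 80 of 101 below 0 and a lowest adjusted p of 0.0624. The score does not overlap between these groups, so the covariate takes up part of the group difference. Epithelial markers were at 8.87 to 9.85 in postSTC, 9.71 to 10.04 in preSTC and 9.34 to 9.76 in preCTC. Between postSTC and preSTC, 1 of 12 (8.33%) was called lower, against 6.9% of all genes tested. Of the 12, 11 had fold changes below 0, with 6 at an unadjusted p under 0.05. Their median was -0.43, against -0.42 over all 101 kinetochore genes. The median was -0.84 over the inner, outer and passenger genes and -1.04 over the proliferation reference genes.

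The 8 crypt stem cell markers had fold changes of postSTC over preSTC from -1.32 to 0.58 with a median of 0.05, and Lgr5 stood at -0.01. None of them had an unadjusted p under 0.05 in edgeR. Germinal centre B cells also divide fast. The mean log2 CPM of 12 of their markers was 1.16 to 3.59 in postSTC, 0.54 to 5.36 in preSTC and 0.72 to 3.81 in preCTC. None was called between postSTC and preSTC, where 10 of 12 lay below 0, 2 were lower at an unadjusted p under 0.05 in edgeR and the median log2 fold change was -1.63. Between preSTC and preCTC 1 of 12 (8.33%) was called higher, below the 19.1% of all genes tested. All 12 lay above 0 there and the median was 1.58. The spread within preSTC was wide, with preSTC1 at 0.54. T cell markers, of which 8 of 9 were in the table, averaged 3.34 to 4.79 in postSTC, 4.49 to 5.26 in preSTC and 1.76 to 3.67 in preCTC on the same scale. Between postSTC and preSTC none was called, 7 of 8 lay below 0, 3 were lower at an unadjusted p under 0.05 in edgeR and the median was -0.86. Between preSTC and preCTC 6 of 8 (75%) were called higher, against 19.1% of all genes tested, with a median of 2.22. Between postSTC and preCTC 3 of 8 (37.5%) were called higher, against 9.27%, with a median of 1.20. Male germ cell markers were below the filter in all groups, with 6 of 10 in the table and none tested. The part of the cell types in the kinetochore results was not tested beyond these values.

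**Figure D4:**
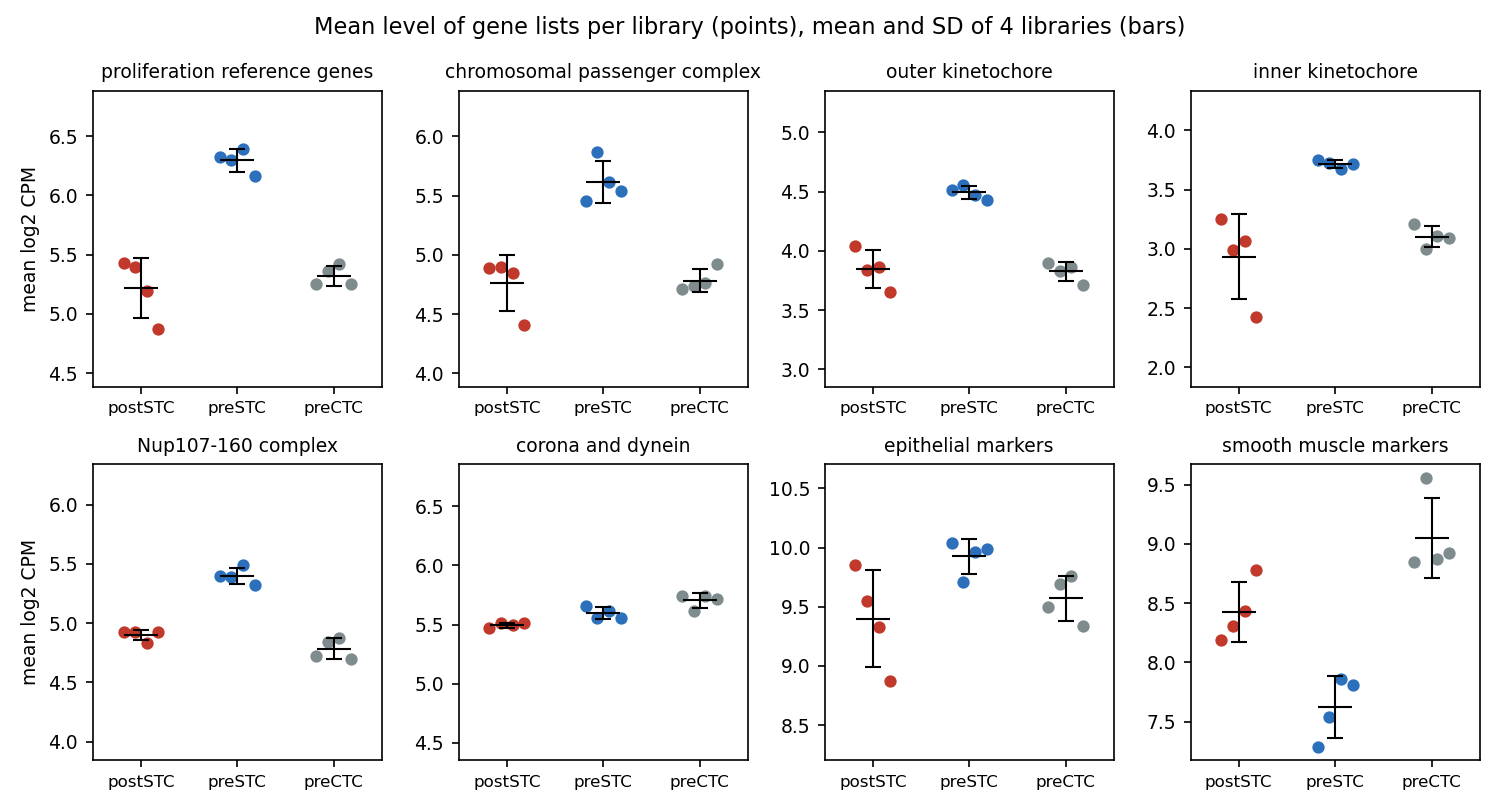
Mean log2 CPM (vertical axis, the same span of units in each panel) of 8 gene lists in each library, with postSTC, preSTC and preCTC from left to right, points for libraries and bars for the mean and SD of 4 libraries. The proliferation, passenger, outer, inner and Nup107-160 lists are highest in preSTC, the corona and dynein list moves little, and the smooth muscle markers are lowest in preSTC.

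Levels between genes were compared as FPKM, the authors' library share of a gene divided by its length. In preSTC the most abundant members were the dynein light chain Dynll1 at 258 FPKM, the phosphatase Ppp1cc at 211 FPKM and Sec13 at 99.5 FPKM. Aurkb led the passenger complex at 28.3 FPKM and Birc5 had 17.5 FPKM. The inner kinetochore genes Cenpa, Cenpu, Cenph and Cenpi were at 3.81, 3.37, 2.31 and 1.63 FPKM. At the bottom were Rec8, Dync1i1 and Tex14, at 0.573, 0.301 and 0.0264 FPKM.

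RefSeq promoter windows of 300 bases (250 before to 50 after the start) were matched to 83 of the 101 genes. The CHR letters TTTGAA or TTCGAA, searched on both strands, occurred in 19 of 38 matched genes called lower in postSTC than in preSTC. They occurred in 11 of the 45 other matched members (24.4%) and in 19.5% of 27457 RefSeq promoters of that length. Of the 9 matched outer kinetochore genes, 4 held them: Knl1, Ndc80 and Nuf2, called lower, and Spc25, not called. Dsn1, Ska3, Pmf1 and Nsl1, called lower, and Mis12, not called, held none. CCAAT was in 39.5% of the genes called lower, 46.7% of the others and 37.7% of all promoters. The E2F letters TTGGCGC or TTCCCGC were in 18.4%, 11.1% and 6.67%. CCAAT on the reverse strand and TTGGCGC can overlap, since both hold TTGG.

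Of the roles with at least 8 matched promoters, the nuclear pore genes (5 of 8) and the inner kinetochore genes (7 of 12) held CHR letters most often, and the members with no assigned role least often (4 of 24). With starts from 60 bases before to 40 after the annotated start, a range chosen after the positions were seen, the CHR letters were in 13 of 38 genes called lower (34.2%). In this range they were in 4 of the 45 others (8.89%) and in 5.89% of all promoters. These shares describe the letters in the windows, and binding of any factor was not measured.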

How the data were processed

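The authors deposited whole read counts per gene with no normalization and FPKM values computed from them. Per the submitters' processing notes, fastp, HISAT2 and HTSeq were used with the rat assembly mRatBN7.2. Strandedness, versions and how reads with several matches were counted are not stated in those notes or the labels. The series' design text names another species and other tools and was not used.

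Groups and replicate numbers came from the sample titles. The members, role lists, marker lists, tests and named-gene rule were chosen with earlier results of these data known. Counts were fitted in R 4.3.3 with edgeR 4.0.16: TMM scaling, filterByExpr (15704 of 18749 genes kept), 1 quasi-likelihood model with group as its only term over 12 libraries, a two-sided F-test and Benjamini-Hochberg adjustment over all tested genes. A gene was called at an adjusted p under 0.05. Each SE was taken as the size of the log2 fold change over the square root of its F statistic. The biological coefficient of variation was 0.322. The fit was tested on simulated data. Scores of lists average log2 CPM (prior count 2) over tested genes. The lowest chi-square per gene between replicates was 33.2, so none was a duplicate. Counts of PCR reads are not independent molecules.

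Genes named were fixed core components, the 3 called members of largest fold change per role, direction and comparison, called members against the main direction, and 9 references. Further members are named to account for each role. One member is counted but not reported here by name. Of 18749 identifiers, 18531 (98.8%) matched RefSeq gene identifiers of assembly GRCr8. Same-numbered postSTC and preSTC libraries deviated together from their group means (r = 0.236, 0.158 and 0.168), against -0.171 to 0.13 for unlike numbers. The numbers were therefore treated as pairs in the block, which the labels do not state. Alternatives were RLE scaling, library totals, DESeq2 1.42.0, limma 3.58.1 (voom on counts, trend on log2 FPKM), other filters, a smooth muscle covariate, the replicate block and leaving out each library.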

Additional observations from a re-analysis of the deposited data

Results flagged for a closer look

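In 55 named genes and 3 groups (165 groups of 4 libraries), 10 groups held a library whose gap to the nearest of the others exceeded Dixon's 95% critical value, where chance gives about 1 in 20. All values are CPM. Zwint stood at 463 in postSTC7, against 42.3 to 59.1 in the other postSTC libraries. Ttk, a checkpoint kinase left out by the pathway condition, stood at 7.26 in the same library, against 14.9 to 15.3, and Dync1li2 at 142, against 109 to 111. In postSTC, Cenpc stood at 19.2 in postSTC5, against 13.8 to 14.6, and Zfp207 at 96.1 in postSTC1, against 109 to 111. In preSTC, Nek2 stood at 42.6 in preSTC1, against 33.3 to 34.1, Nup107 at 37.8 in preSTC7, against 32.4 to 33.0, and Mki67 at 245 in preSTC9, against 299 to 309. In preCTC, Cenpt stood at 7.85 in preCTC1, against 6.53 to 6.65, and Mki67 at 174 in preCTC7, against 138 to 144. Of the 10, 3 were in postSTC7, the library with 44.2% accessory gland counts. The cause of these values was not tested.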

How the results depend on the processing

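Counts are members called lower and higher, in that order. For postSTC against preSTC (46 and 3), RLE scaling gave 46 and 3, DESeq2 54 and 3 and voom 47 and 3. Library totals gave 16 and 0, log2(FPKM + 1) 17 and 0 with a filter and 4 and 0 without, log2(FPKM + 0.1) 16 and 0, the smooth muscle covariate 0 and 0 and the replicate block 36 and 2 in 12 libraries and 0 and 0 in 8. Leaving out 1 library gave 38 to 49 lower and 3 to 4 higher. For preSTC against preCTC (4 and 50), library totals gave 3 and 8, the covariate 1 and 1, log2(FPKM + 1) 2 and 7 with a filter and 3 and 6 without, and log2(FPKM + 0.1) 2 and 5. The replicate block gave 4 and 45 in 12 libraries and 5 and 52 in 8, and leaving out 1 library 3 to 5 lower and 41 to 46 higher. For postSTC against preCTC (5 and 4), library totals gave 1 and 0, removal of accessory gland genes 4 and 2, no filter 4 and 2, the 8 libraries alone 1 and 0, the block 0 and 0 in both fits, the covariate 7 and 2, and FPKM 0 and 0 with a filter and 1 and 0 without. Leaving out 1 library gave 1 to 7 lower and 2 to 4 higher. Same-numbered libraries 1, 5, 7 and 9 had r of 0.222, -0.028, 0.171 and 0.145 for preSTC against preCTC, and libraries 1, 5 and 7 had 0.22, -0.016 and 0.054 for postSTC against preCTC. Not every pair was over 0.1, so these numbers were not taken as pairs. The block fits that held preCTC libraries nonetheless used their numbers. The median log2 fold change of all genes was -0.20 with library totals for postSTC against preCTC, and -0.25 with log2(FPKM + 0.1).

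Signs turned mainly under the covariate, whose score does not overlap between the groups compared and so takes up part of their difference. For postSTC against preSTC, Zwint had -0.63. For preSTC against preCTC, Cenpe had -0.23, Ndc80 -0.078, Spc25 -0.37, Ska3 -0.019, Spag5 -0.13, Hjurp -0.014, Cenph -0.69, Nek2 -0.044, Bub1b -0.21, Dync1li2 0.028 and Dynlt3 0.072. Pbrm1, at -0.02 for postSTC against preSTC, ran from -0.144 without postSTC replicate 7 to 0.047 without postSTC replicate 1. The cause was not tested. Tex14 and Rec8, with few counts, had SEs of 0.66 and 0.53 for postSTC against preSTC, and floors or intervals from counts would cover counting error only.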
